A study of Mus musculus with 6 samples.

Results

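The genes described here encode the cadherins, catenins, nectins, claudins, junctional adhesion molecules, plakophilins, polarity proteins and regulators that build the junctions between epithelial cells. They are 45 rows of the count table of 54715 genes, picked by gene name, and each name was found once. Of these, 12 belong to the adherens junction, 17 to the tight junction, 7 to the desmosome and 4 to apical polarity, and 5 are *Epcam* and regulators of the epithelial state. RNA-Seq compared 3 libraries of wild type (WT) ASCs with 3 of *Bdh2*-/- ASCs. ASCs are mouse embryonic stem cells kept in an advanced pluripotent state, on fibronectin in N2B27 medium that contains leukemia inhibitory factor, the Gsk3 inhibitor CHIR99021, BMP4 and Activin A. Both genotypes derive from a female 129/sv mouse and a GOF/GFP male, which carries GFP under Oct4 control. The knockout is a bi-allelic CRISPR/Cas9 deletion in a line expanded from 1 selected colony, so the genotype and this 1 clone cannot be told apart. The ages of the cells are not given in the sources used here, and the labels do not say whether replicates came from separate cultures. The p-values therefore measure the spread between these libraries, which may be technical.

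Adherens junctions join neighboring cells through classical cadherins, whose tails bind p120-catenin and, through beta-catenin or plakoglobin, the actin-binding alpha-catenin. Tight junctions lie above them and seal the space between cells with claudins and occludin, held in place by ZO scaffold proteins, while desmosomes anchor keratin filaments through desmogleins, desmocollins, plakophilins and desmoplakin. The PAR and Crumbs complexes position these junctions at the apical side. Pluripotent stem cells of the mouse grow as compact epithelium-like colonies that depend on E-cadherin, the product of *Cdh1*.

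Promoter sequences are shown for 5 of these genes because transcription factors in the gene set are known to read short motifs near epithelial genes. *Zeb1* and *Zeb2* encode repressors that bind E-boxes of the form CACCTG, which reads CAGGTG on the other strand, and *Grhl2* encodes an activator that binds AACCNGTT, or AACNGGTT on the other strand. A match to one of these motifs cannot be a match to the other. RefSeq promoters (GRCm38.p6, 250 bases before to 50 after a transcript start) were found for 27 of the 45 genes, with 40 promoters in all. An E-box occurred in 20 of the 40 (50%), against 20.2% of all 32851 RefSeq promoters, and the Grhl motif in 2 of the 40 (5.0%), against 2.09% of all promoters. Promoters of the same gene can overlap, as those of *Crb3* and *Marveld2* do, so the same site can count more than once. The following windows lie before the start and hold no annotated exon, and capitals mark the motifs. They are *Tjp3* (chr10:81291582-81291781, minus strand), *Crb3* (chr17:57062001-57062140, plus strand, within the span the table gives for the gene), *Epcam* (chr17:87635779-87635978, plus strand), *F11r* (chr1:171437361-171437534, plus strand) and *Cldn5* (chr16:18776647-18776846, plus strand).
Tjp3: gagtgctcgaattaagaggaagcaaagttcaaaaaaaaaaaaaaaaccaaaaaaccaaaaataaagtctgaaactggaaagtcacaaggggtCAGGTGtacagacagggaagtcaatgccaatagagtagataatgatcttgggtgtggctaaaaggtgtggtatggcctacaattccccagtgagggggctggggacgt
Crb3: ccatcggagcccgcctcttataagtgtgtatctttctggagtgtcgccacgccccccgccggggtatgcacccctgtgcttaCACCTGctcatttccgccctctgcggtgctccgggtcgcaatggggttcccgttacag
Epcam: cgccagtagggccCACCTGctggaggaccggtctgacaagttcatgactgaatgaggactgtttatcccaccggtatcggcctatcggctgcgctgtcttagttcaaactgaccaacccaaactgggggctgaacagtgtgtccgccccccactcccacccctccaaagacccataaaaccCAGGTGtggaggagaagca
F11r: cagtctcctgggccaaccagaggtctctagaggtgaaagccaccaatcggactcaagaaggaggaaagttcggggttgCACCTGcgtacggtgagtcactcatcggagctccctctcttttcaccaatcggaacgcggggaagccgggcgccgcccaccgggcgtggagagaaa
Cldn5: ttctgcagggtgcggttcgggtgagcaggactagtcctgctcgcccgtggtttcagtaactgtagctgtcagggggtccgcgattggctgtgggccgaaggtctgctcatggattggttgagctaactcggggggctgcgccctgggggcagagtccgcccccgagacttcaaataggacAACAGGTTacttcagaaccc
The first 4 hold E-boxes and come from genes that fell (*Tjp3*, *Crb3*) or rose (*Epcam*, *F11r*) in the knockout. The *Cldn5* window holds the Grhl form AACAGGTT, which starts 20 bases before the transcript start. Counted by gene, an E-box occurred in at least 1 promoter of 4 of the 4 genes with an entry that fell, 4 of the 8 that rose and 7 of the 14 that were tested and did not pass, against 22.6% of all 27025 genes with an entry. The Grhl motif occurred in 2 of these 14 and in 0 of the 8 that rose and 0 of the 4 that fell, against 2.35% of all genes with an entry. The 4 genes that fell each had 2 promoters, while most of those that rose had 1, so the numbers of windows searched were unequal. The matches are a description of these windows only.

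Counts assigned to genes ranged from 18927748 to 28333541 per library, so that 3 counts correspond to 0.106 to 0.158 CPM (counts scaled to the library total), and this limit covers counting error only. Normalized CPM below are CPM after TMM scaling. The targeted gene *Bdh2* was present at 10.5, 9.56 and 8.27 normalized CPM in WT ASCs and at 5.95, 4.99 and 5.38 in *Bdh2*-knockout ASCs (log2 fold change -0.79 ± 0.12 (SE), adjusted p = 2.46e-04), so both genotypes carried their labelled direction. The cells expressed all 10 pluripotency markers listed, such as *Pou5f1*, with summed levels of 7288 to 7371 normalized CPM in WT and 7445 to 7567 in knockout libraries, and 5 of them rose and 1 fell. Summed primitive endoderm markers were 247 to 271 in WT and 621 to 685 in knockout libraries, and 12 of 13 rose and 1 fell. Adult hepatocyte transcripts summed to 585, 362 and 57.6 normalized CPM in WT replicates 1, 2 and 3 and to 48.6, 174 and 34.5 in knockout replicates 1, 2 and 3, and 12 of 15 fell. None of these 15 transcripts was at 0 in every library. Trophectoderm markers summed to 143 to 166 in WT and 131 to 137 in knockout libraries, and 3 of 7 tested fell. Fibroblast markers summed to 26.6 to 32.5 and 21.6 to 27.2, and 1 of 5 tested fell. Beside these counts, 21.0% of all tested genes rose and 20.8% fell. In bulk RNA fewer cells of a type and less RNA per cell cannot be told apart, and the part of primitive endoderm cells in the values below was not tested.

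The junction genes moved in both directions, and mostly by little. Of the 45 genes, 43 had enough counts for a test, and 21 of these passed an adjusted p of 0.05 in edgeR's quasi-likelihood test, against 41.7% of the 16758 genes tested. Higher levels in the knockout were called for 15, against 21.0% of all tested genes, and lower levels for 6, against 20.8%. The values of both genotypes did not overlap for 24 of the 43, against 52.4% of all tested genes. The share called in either direction, 48.8%, was thus near that of all genes. The directions were less even in the set (15 higher, 6 lower) than over all called genes, of which 50.3% were higher. The median log2 fold change was 0.06, beside -0.01 over all genes, and 28 of the 43 lay within 0.25 of 0. Only 5 called genes, *Cdh6*, *Cdh4*, *Grhl2*, *Jam2* and *Tjp3*, changed by more than 1.5-fold, and 16 by less. *Ctnna2* and *Pkp1* were not tested, with at most 7 and 5 counts in any library. When the level of hepatocyte transcripts was added to the model, 9 genes were called higher, against 16.1% of all tested genes, and 5 lower, against 15.1%. The share of junction genes called was then 32.6%, near the 31.2% of all genes.

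**Figure D1:**
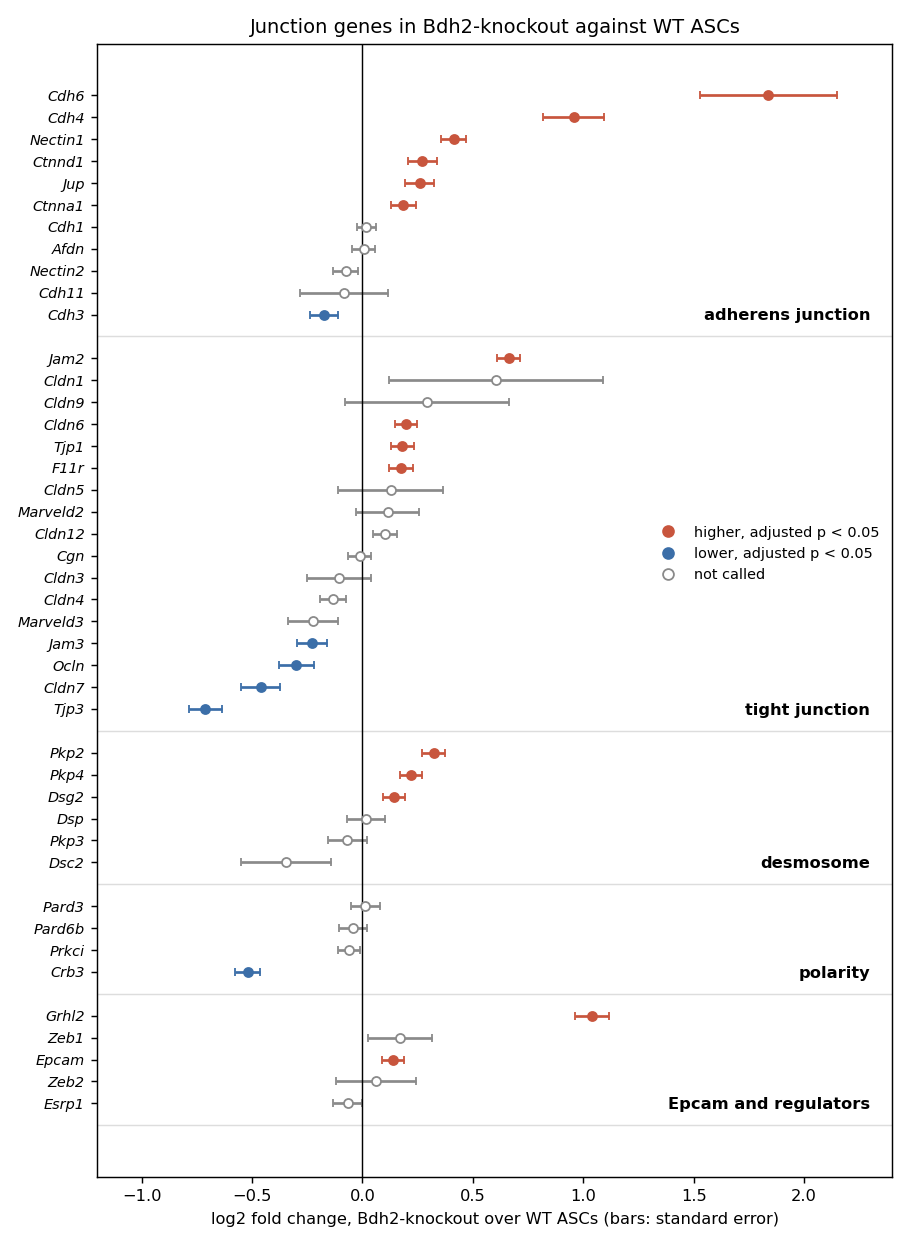
Log2 fold change of the 43 tested junction genes in Bdh2-knockout over WT ASCs (x axis), by class, with bars for the standard error and filled points for an adjusted p under 0.05. Most points lie near 0, Cdh6 lies farthest to the right at 1.84 and Tjp3 farthest to the left at -0.71.

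Among the adherens junction genes, E-cadherin transcripts were abundant and did not pass the test, whereas 2 minor cadherins rose. *Cdh1* was measured at 532, 557 and 549 normalized CPM in WT ASCs and at 552, 564 and 543 in *Bdh2*-knockout ASCs. The groups overlapped, and the log2 fold change was 0.02 ± 0.04 (SE, adjusted p = 0.769). *Cdh4* (chromosome 2, 179442431 to 179899373, plus strand), which encodes R-cadherin, was measured at 4.02, 3.77 and 5.30 in WT and at 8.67, 9.02 and 7.89 in knockout libraries. It rose 1.94-fold (log2 fold change 0.96 ± 0.14, adjusted p = 1.48e-04), and the lowest knockout library was above the highest WT library. *Cdh6* (chromosome 15, 13028701 to 13173675, minus strand), which encodes K-cadherin and is named here after its values were seen, was counted 6, 11 and 12 times in WT and 36, 44 and 46 times in knockout libraries. Its log2 fold change of 1.84 ± 0.31 (adjusted p = 4.28e-04) was the highest of the 43 genes, at levels between 0.309 and 1.92 normalized CPM. *Cdh3*, which encodes P-cadherin, was measured at 24.1, 25.3 and 24.5 in WT and at 22.1, 22.5 and 20.7 in knockout libraries. The groups did not overlap and the fall was small (log2 fold change -0.17 ± 0.06, adjusted p = 0.0407). It did not pass when any 1 of the 6 libraries was left out (adjusted p 0.0534 to 0.197). *Cdh11* was near 2 normalized CPM in both genotypes (log2 fold change -0.08 ± 0.20).

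Among the 5 cadherins of the set, compared per length as FPKM (CPM per kilobase of gene length), most of the sum came from *Cdh1*. It supplied 94.8% ± 0.03 (SD, n = 3) of the FPKM of the 5 cadherins in WT and 94.9% ± 0.11 in knockout ASCs. The share of *Cdh3* was 4.46% ± 0.05 in WT and 3.90% ± 0.10 in knockout ASCs, and that of *Cdh4* was 0.478% ± 0.089 and 0.922% ± 0.045. Other cadherins are not in these sums, such as *Cdh2* at 2.20 ± 0.05 FPKM in WT and 2.74 ± 0.20 in knockout ASCs and *Cdh24* at 2.74 and 2.90, which were above *Cdh4* at 0.612 ± 0.11 and 1.15 ± 0.07.

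All 3 tested catenins of the set rose, by 1.14- to 1.21-fold, while 21.0% of all tested genes rose. None of these 3 increases passed edgeR's test against a fold change of 1.2, which 14.7% of all genes passed. *Ctnna1*, which encodes alpha-E-catenin, was measured at 379, 413 and 444 normalized CPM in WT and at 467, 468 and 469 in knockout libraries. The knockout libraries were nearly equal while the WT libraries were spread (log2 fold change 0.18 ± 0.06, adjusted p = 0.0173), and without WT replicate 1 the gene did not pass (0.13, adjusted p = 0.0662). *Ctnnd1*, which encodes p120-catenin, was measured at 38.3, 45.5 and 40.6 in WT and at 52.7, 47.5 and 49.95 in knockout libraries (log2 fold change 0.27 ± 0.07, adjusted p = 0.00520). Exons of the gene model *Gm28635* on the same strand cover 61.2% of its exon bases, so its count is uncertain, and *Gm28635* itself had 0 counts in all libraries. *Jup*, which encodes plakoglobin and serves both adherens junctions and desmosomes, was measured at 137, 133 and 160 in WT and at 165, 179 and 171 in knockout libraries. It did not overlap between the genotypes (log2 fold change 0.26 ± 0.07, adjusted p = 0.00746), but did not pass with the hepatocyte term (0.19, adjusted p = 0.0533), and nor did *Ctnna1* (0.11, adjusted p = 0.197).

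Nectins are immunoglobulin-like adhesion molecules that are tied to actin by afadin, the product of *Afdn*. *Nectin1* (chromosome 9, 43743984 to 43807461, plus strand) was measured at 27.8, 29.3 and 30.7 normalized CPM in WT and at 38.9, 38.3 and 39.9 in knockout libraries. It rose 1.33-fold (log2 fold change 0.41 ± 0.06, adjusted p = 1.00e-04), with no overlap. *Nectin2*, the more abundant nectin, was measured at 137, 139 and 153 in WT and at 129, 139 and 138 in knockout libraries (log2 fold change -0.08 ± 0.06, adjusted p = 0.300). *Afdn* was measured at 230, 241 and 257 in WT and at 248, 242 and 241 in knockout libraries (log2 fold change 0.01 ± 0.05, adjusted p = 0.944). The groups overlapped for both genes. In all, 6 of the 11 tested adherens junction genes rose and 1 fell, with a median log2 fold change of 0.18 (all tested genes, 21.0% higher and 20.8% lower). With the hepatocyte term 4 of the 11 were called, against 31.2% of all genes.

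**Figure D2:**
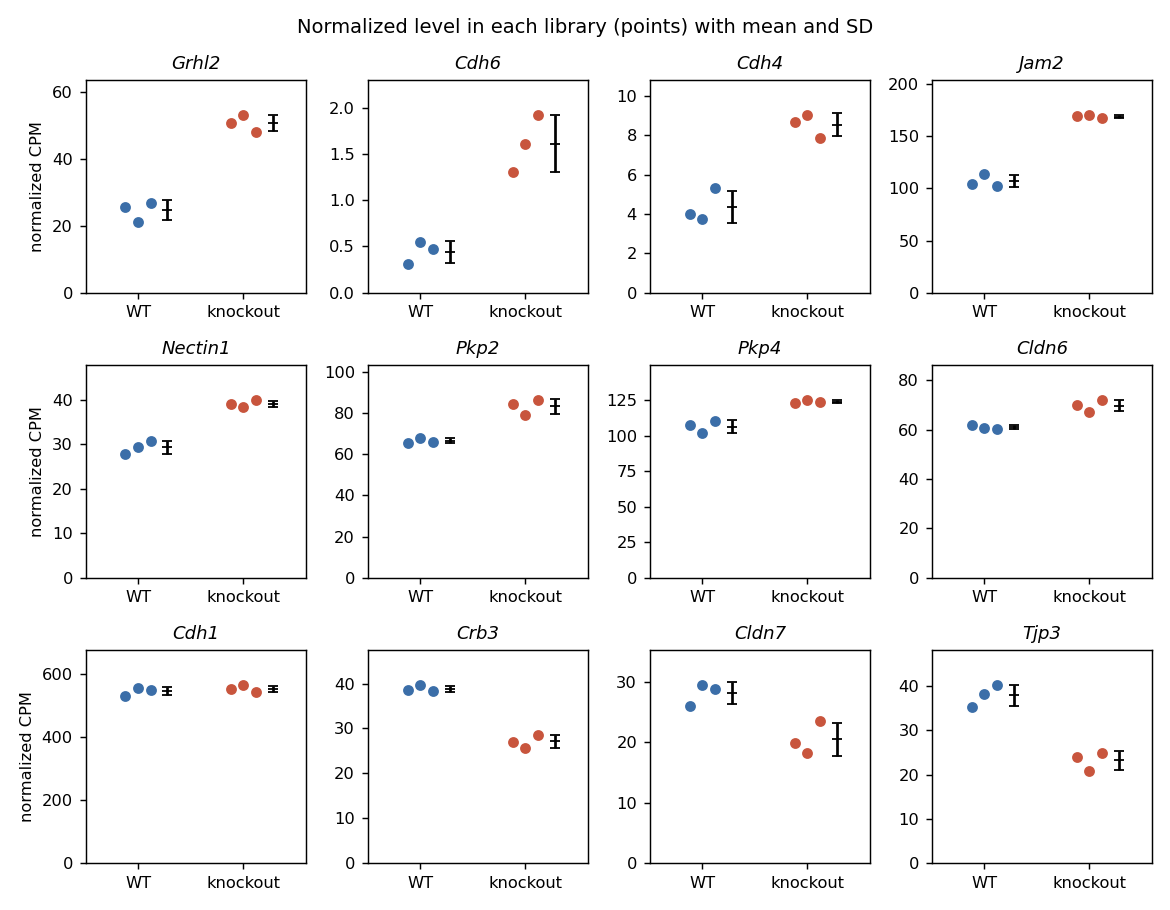
Normalized CPM (y axis, from 0) of 12 junction genes in each of the 3 WT and 3 Bdh2-knockout libraries, with the mean and SD beside the points. Grhl2, Cdh6, Cdh4, Jam2, Nectin1, Pkp2, Pkp4 and Cldn6 lie higher in all knockout libraries, Crb3, Cldn7 and Tjp3 lie lower, and the values of Cdh1 overlap.

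Of the 17 tight junction genes, 4 were higher and 4 lower in the knockout, with a median log2 fold change of 0.10 (all tested genes, 21.0% and 20.8%). With library totals in place of TMM 2 were higher and 5 lower, against 16.3% and 26.6% of all genes, and with the hepatocyte term 2 were higher and 4 lower, against 16.1% and 15.1%. The 8 claudins, which form the paracellular seal, included 1 that rose and 1 that fell. *Cldn6* (chromosome 17, 23679249 to 23682446, plus strand), a claudin of embryonic epithelia and pluripotent cells, was measured at 61.8, 60.7 and 60.2 normalized CPM in WT and at 70.1, 67.2 and 71.8 in knockout libraries. It rose 1.15-fold (log2 fold change 0.20 ± 0.05, adjusted p = 0.00734), and replicates of each genotype lay close together. *Cldn7* (chromosome 11, 69964779 to 69967885, plus strand) was measured at 26.1, 29.4 and 28.9 in WT and at 19.9, 18.2 and 23.5 in knockout libraries. It was 1.38-fold lower in the knockout (log2 fold change -0.46 ± 0.09, adjusted p = 0.00113), without overlap. *Cldn4*, the claudin with the highest level per length, did not pass, with 101 ± 6.31 (SD, n = 3) normalized CPM in WT and 92.4 ± 4.33 in knockout ASCs (log2 fold change -0.13 ± 0.06, adjusted p = 0.0899). It was called lower with library totals in place of TMM (-0.19, adjusted p = 0.0162) and without WT replicate 1 (-0.18, adjusted p = 0.0288). The other 5 claudins did not pass either, at log2 fold changes from -0.11 for *Cldn3* to 0.61 for *Cldn1*. *Cldn1*, *Cldn5* and *Cldn9* were measured at no more than 1.81 normalized CPM in any library, with standard errors of 0.24 to 0.48, which limits what can be said of them.

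As shares of the summed claudin FPKM, *Cldn6* supplied 29.5% in WT and 34.7% in knockout ASCs, *Cldn7* 12% and 9.0%, and *Cldn4* 46.4% and 43.5%. The summed claudin FPKM was 122 ± 3.47 (SD, n = 3) in WT and 114 ± 3.75 in knockout ASCs. Each FPKM is scaled to the library total, without TMM.

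Occludin and its relatives share the 4-pass MARVEL domain. *Ocln*, which encodes occludin, was measured at 16.7, 16.8 and 18.2 normalized CPM in WT and at 15.03, 13.2 and 13.8 in knockout libraries. It fell, with a log2 fold change of -0.30 ± 0.08 (adjusted p = 0.00839) and no overlap. *Marveld3* lay lower in every knockout library and did not pass (log2 fold change -0.22 ± 0.11, adjusted p = 0.130), and *Marveld2*, which encodes tricellulin, overlapped (0.11 ± 0.14).

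The scaffold genes of the tight junction moved apart. *Tjp3* (chromosome 10, 81273207 to 81291581, minus strand), which encodes ZO-3, was measured at 35.3, 38.3 and 40.2 normalized CPM in WT and at 24.0, 20.8 and 24.8 in knockout libraries. This was the largest decrease among the 43 tested genes, 1.64-fold (log2 fold change -0.71 ± 0.07, adjusted p = 1.07e-05), and the groups were far apart. *Tjp1*, which encodes ZO-1, was measured at 144, 143 and 155 in WT and at 173, 163 and 165 in knockout libraries. It rose 1.13-fold (log2 fold change 0.18 ± 0.05, adjusted p = 0.0125), but was not called with library totals in place of TMM (0.12) or with the hepatocyte term (0.13, adjusted p = 0.126). *Cgn*, which encodes the ZO-binding protein cingulin, was at 48.7 ± 1.42 (SD, n = 3) in WT and 48.2 ± 2.28 in knockout ASCs, and 20.1% of the 50-base stretches of its longest transcript also occur in BC021767, so its count is uncertain.

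Junctional adhesion molecules are immunoglobulin-like proteins that recruit polarity proteins to tight junctions. *Jam2* (chromosome 16, 84774123 to 84825928, plus strand) was measured at 104, 113 and 103 normalized CPM in WT and at 169, 170 and 167 in knockout libraries. It rose 1.58-fold (log2 fold change 0.66 ± 0.05, adjusted p = 1.12e-06), and the spread within each genotype was small beside the difference. *F11r*, which encodes JAM-A, was measured at 56.7, 51.6 and 57.3 in WT and at 61.5, 64.4 and 61.1 in knockout libraries (log2 fold change 0.17 ± 0.06, adjusted p = 0.0226). It did not pass without WT replicate 2 (0.13, adjusted p = 0.104), without knockout replicate 2 (0.15, adjusted p = 0.0785) or with the hepatocyte term (0.17, adjusted p = 0.0779). *Jam3* was measured at 23.3 ± 1.40 (SD, n = 3) in WT and 19.9 ± 0.35 in knockout ASCs (log2 fold change -0.23 ± 0.07, adjusted p = 0.0148). It did not pass without WT replicate 3 (-0.18, adjusted p = 0.0601) or knockout replicate 1 (-0.20, adjusted p = 0.0673), and exons of *Gm48796* on the opposite strand overlap 36.2% of its exon bases. Within this family the share of *Jam2* in the summed FPKM was 38.7% in WT and 48.6% in knockout ASCs, that of *F11r* 45.4% and 40.6%, and that of *Jam3* 15.9% and 10.8%, so that *Jam2* took the place of *F11r* as the member with the highest level per length.

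**Figure D3:**
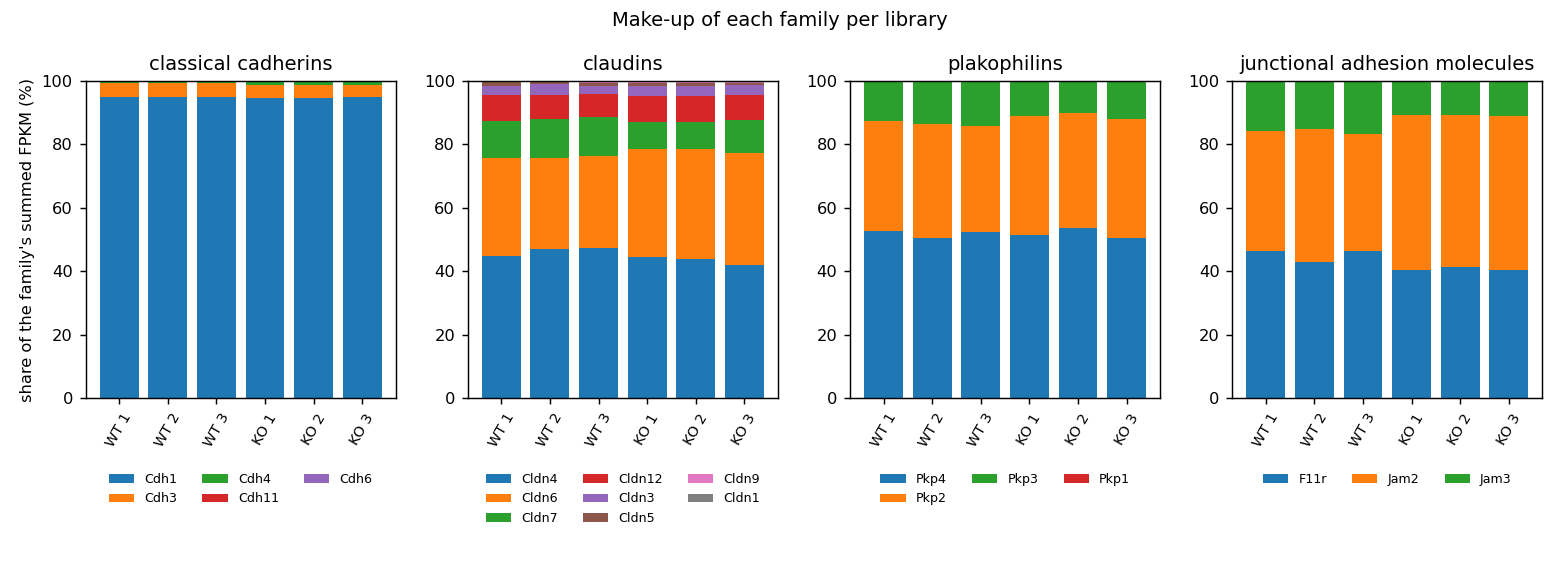
Share of each gene (stacked, in percent) in the summed FPKM of the 5 cadherins, 8 claudins, 4 plakophilins and 3 junctional adhesion molecules of the set in each library. Cdh1 fills about the same share of the cadherin bars in all 6 libraries, while Jam2 takes 38.7% of its family in WT and 48.6% in knockout ASCs on average.

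Of the 6 tested desmosome genes, 3 rose and the other 3 did not pass (median log2 fold change 0.08), while 21.0% of all tested genes rose. None of these increases passed edgeR's test against a fold change of 1.2, which 14.7% of all genes passed. *Pkp2* (chromosome 16, 16213318 to 16272712, plus strand), which encodes the plakophilin of simple epithelia and heart, was measured at 65.6, 68.1 and 66.2 normalized CPM in WT and at 84.4, 79.4 and 86.3 in knockout libraries. It rose 1.25-fold (log2 fold change 0.32 ± 0.05, adjusted p = 3.42e-04), without overlap. *Pkp4*, an armadillo protein related to p120-catenin, was measured at 107, 102 and 111 in WT and at 123, 125 and 124 in knockout libraries (log2 fold change 0.22 ± 0.05, adjusted p = 0.00368). *Dsg2*, the desmoglein of simple epithelia, was measured at 43.4, 44.4 and 45.5 in WT and at 49.0, 49.1 and 49.2 in knockout libraries. Its groups did not overlap (log2 fold change 0.14 ± 0.05, adjusted p = 0.0300), but it did not pass without any one of the 3 knockout libraries or WT replicate 1 or 2 (adjusted p 0.0585 to 0.104), nor with the hepatocyte term (adjusted p = 0.185). *Dsp*, which encodes desmoplakin, was measured at 27.3, 30.6 and 35.9 in WT and at 33.9, 31.1 and 30.1 in knockout libraries, which overlapped (log2 fold change 0.02 ± 0.09, adjusted p = 0.901). *Pkp3* and *Dsc2* did not pass (log2 fold changes -0.07 ± 0.09 and -0.35 ± 0.20). Without knockout replicate 3, which had the highest *Dsc2* level of the knockout, *Dsc2* just passed at -0.56 (adjusted p = 0.0499). It passed in no other alternative.

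Of the 4 polarity genes, 1 fell, against 20.8% of all tested genes, and the other 3 did not pass (median log2 fold change -0.05). *Crb3* (chromosome 17, 57059105 to 57065918, plus strand), which encodes the Crumbs protein of epithelia, was measured at 38.6, 39.6 and 38.3 normalized CPM in WT and at 27.0, 25.7 and 28.6 in knockout libraries. It was 1.43-fold lower in the knockout (log2 fold change -0.52 ± 0.06, adjusted p = 1.91e-05), and its highest knockout library was well below its lowest WT library. The genes of the PAR complex did not pass. *Prkci*, which encodes the atypical protein kinase C of the complex, was measured at 232, 231 and 253 in WT and at 226, 230 and 231 in knockout libraries (log2 fold change -0.06 ± 0.05, adjusted p = 0.345). *Pard3*, its scaffold, was measured at 46.3, 52.1 and 56.4 in WT and at 50.3, 54.2 and 52.0 in knockout libraries (log2 fold change 0.01 ± 0.07, adjusted p = 0.890). The knockout values of *Prkci* lay just below the lowest WT value, and those of *Pard3* overlapped, as did those of *Pard6b*, which encodes the adaptor of the complex (-0.04 ± 0.06).

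*Grhl2* (chromosome 15, 37233036 to 37363569, plus strand), which encodes a transcription factor known to activate epithelial junction genes, was measured at 25.7, 21.2 and 26.8 normalized CPM in WT and at 50.6, 53.0 and 48.1 in knockout libraries. It rose 2.06-fold (log2 fold change 1.04 ± 0.08, adjusted p = 6.83e-07), with the lowest knockout value well above the highest WT value. The antisense model *Gm16136*, which overlaps 1.96% of its exon bases, was counted 13, 6 and 12 times in WT and 38, 49 and 30 times in knockout libraries. *Epcam*, which encodes an adhesion molecule of epithelia and stem cells, was measured at 177, 195 and 188 in WT and at 207, 206 and 205 in knockout libraries. It rose 1.10-fold (log2 fold change 0.14 ± 0.05, adjusted p = 0.0406), but did not pass without WT replicate 1 or any one knockout library (adjusted p 0.0825 to 0.132), nor with the hepatocyte term (adjusted p = 0.162). *Esrp1*, a splicing regulator of epithelial cells, was measured at 43.3, 50.1 and 44.5 in WT and at 42.0, 42.7 and 47.0 in knockout libraries (log2 fold change -0.07 ± 0.07, adjusted p = 0.431). The repressor genes of the epithelial state were low in both genotypes. *Zeb1* was measured at 4.38, 3.91 and 4.63 in WT and at 4.25, 5.17 and 5.17 in knockout libraries (log2 fold change 0.17 ± 0.14, adjusted p = 0.364). *Zeb2* was measured at 2.52, 3.27 and 3.48 in WT and at 3.77, 2.90 and 3.05 in knockout libraries (log2 fold change 0.06 ± 0.18, adjusted p = 0.809). Both overlapped between the genotypes. In this class 2 of the 5 genes rose, against 21.0% of all tested genes, and the other 3 did not pass.

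Levels per length differed widely within the set. In WT ASCs 17 genes were above 10 FPKM, 18 lay between 1 and 10, and 10 were below 1. *Cdh1* was highest at 122 ± 2.35 FPKM (SD, n = 3), followed by *Ctnna1* at 113 ± 8.18, and the ranges of these neighbors overlapped. *Epcam* at 93.3 ± 4.30 and *Cldn4* at 56.8 ± 3.25 came next, and each was separate from the gene before it. The listed length of *Ctnna1* is 3698 bases, while its exons in GENCODE M21 cover 6425, so its place in this order depends on the length used. *Prkci* at 43.8 ± 1.99 and *Nectin2* at 41.7 ± 2.32 did not differ beyond their spread, and *Cldn6* at 36.0 ± 0.71 followed below both. From *Crb3* at 25.3 ± 0.50 through *Afdn*, *Jup*, *F11r*, *Tjp1* and *Pkp4* to *Jam2* at 18.0 ± 0.99, every gene overlapped with its neighbor in the order. In the knockout *Jam2* moved from rank 14 to 8, *Crb3* from 8 to 14, *Tjp3* from 17 to 23 and *Grhl2* from 32 to 26. Of the 21 called genes, 12 were among the 17 above 10 FPKM in WT. The share called among all genes above 10 FPKM is not given here, so this count is not a trait of the junction genes. Over all genes, calls were also more frequent at higher counts. With a mean count of at least 50 required, 6359 of 12718 genes were called, against 41.7% of all tested genes. The median coefficient of variation over the set was 6.13% in WT and 4.68% in knockout libraries.

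**Figure D4:**
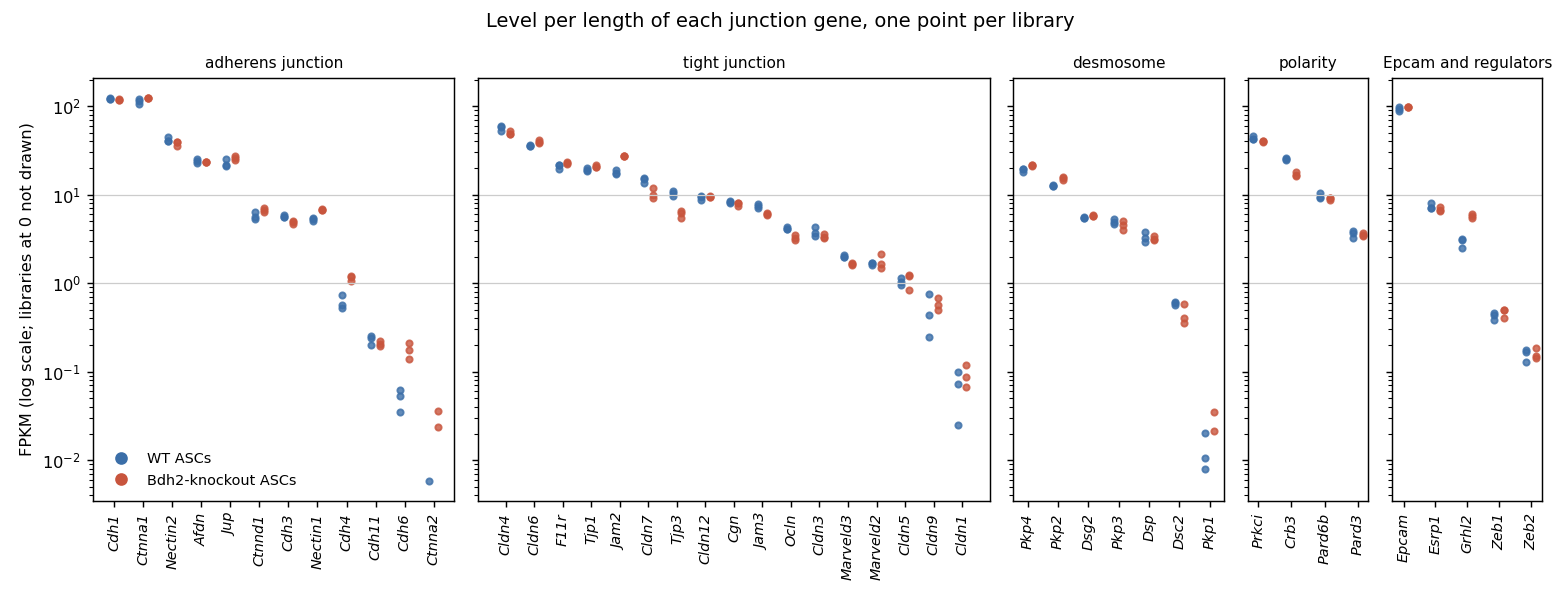
FPKM (y axis, log scale) of each junction gene in each library, by class, with WT points to the left and Bdh2-knockout points to the right and libraries at 0 left out. Cdh1, Ctnna1 and Epcam are the highest, with 122, 113 and 93.3 FPKM in WT, and Pkp1 and Ctnna2 the lowest.

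A further 112 genes of the same structures, from a list outside the 45, were read out from the same fit. Of 77 that could be tested, 26 rose and 8 fell, and the median log2 fold change was 0.13. The share called, 44.2%, was near the 41.7% of all tested genes, with 21.0% of all genes higher and 20.8% lower. By class, 8 rose and 2 fell of 21 at adherens junctions, 11 rose and 1 fell of 20 at tight junctions, 3 of 3 rose in desmosomes, 2 rose and 4 fell of 18 for polarity, and 2 rose and 1 fell of 15 regulators. Beta-catenin, encoded by *Ctnnb1*, was measured at 580 ± 29.4 normalized CPM (SD, n = 3) in WT and 654 ± 13.6 in knockout ASCs (log2 fold change 0.17 ± 0.05, adjusted p = 0.0118), a rise close to that of *Ctnna1*. N-cadherin, encoded by *Cdh2*, was measured at 17.4 ± 0.34 in WT and 22.6 ± 1.81 in knockout ASCs (log2 fold change 0.38 ± 0.07, adjusted p = 0.00123). Among genes with a mean of at least 50 counts, the 3 largest increases were those of *Esam*, an adhesion molecule of endothelial tight junctions (log2 fold change 2.0), *Ildr2*, an angulin of tricellular junctions (1.19), and *Perp*, a 4-pass desmosome protein (0.82). The 3 largest decreases were those of *Prkcz* (-0.55) and *Pard6a* (-0.46), which encode polarity proteins, and *Tmem47* (-0.49), a claudin-like protein of adherens junctions.

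Several of the genes lie near each other, and in each of the 4 pairs described at most 1 gene passed the test. *Cldn6* and *Cldn9* on chromosome 17 are 137 bases apart on opposite strands, with 0 annotated genes between them. *Cldn6* rose, while *Cldn9* was measured at 0.618, 0.347 and 1.07 normalized CPM in WT and at 0.835, 0.733 and 1.00 in knockout libraries, which overlapped. *Cldn4* and *Cldn3*, 39279 bases apart on chromosome 5 with 0 genes between them, both did not pass. *Cdh3* and *Cdh1* on chromosome 8 are 46053 bases apart and *Ocln* and *Marveld2* on chromosome 13 are 43238 bases apart, each pair with 2 annotated genes between them. *Cdh3* and *Ocln* fell, while *Cdh1* and *Marveld2* did not pass. Chromosome 16 holds *Jam2*, *Pkp2*, *Cldn5* and *Cldn1*. On this chromosome 44.7% of 494 tested genes were higher and 8.91% lower in the knockout, with a median log2 fold change of 0.19, while the medians of the other chromosomes lay between -0.07 and 0.02. The log2 fold changes of *Jam2* (0.66), *Pkp2* (0.32) and *Cldn1* (0.61 ± 0.48, not called) were above this median and that of *Cldn5* (0.13, not called) was below it. In the stretch from 80 Mb to 90 Mb that holds *Jam2*, the median of 17 tested genes was 0.32. The part of the chromosome in these values was not tested.

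Across the 15 alternatives to the model, 8 of the 21 calls held in each alternative that tested the gene. These were the increases of *Cdh4*, *Cdh6*, *Nectin1*, *Jam2* and *Grhl2* and the decreases of *Cldn7*, *Tjp3* and *Crb3*. A further 5 (*Ctnnd1*, *Cldn6*, *Ocln*, *Pkp2* and *Pkp4*) were lost only in the test against a fold change of 1.2. *Cdh6* was tested in 14 of the 15, since its mean count is under 50. With library totals in place of TMM the increases of *Ctnna1*, *Tjp1*, *F11r*, *Dsg2* and *Epcam* were not called, and with DESeq2 the changes of *Cdh3*, *Jam3* and *Dsg2* were not.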

How the data were processed

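RNA-Seq of 3 WT and 3 *Bdh2*-knockout ASC samples was used. After trimming and quality filtering, the authors aligned reads to GRCm38 by HISAT2 2.0.5, assigned them to genes by FeatureCounts, and deposited raw counts with gene lengths. The strand setting and the treatment of reads with several matches are not given in the sources used here, so genes with overlapping or antisense partners are uncertain.

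Counts were tested in R 4.3.3 with edgeR 4.0.16 (TMM, filterByExpr, quasi-likelihood test on genotype). P-values were adjusted by Benjamini-Hochberg over the 16758 genes kept, with a threshold of 0.05. FPKM and TPM were computed from counts and listed lengths. Replicates of a genotype differed by more than sampling noise. Alternatives were DESeq2 1.42.0, other scalings and filters, limma-voom (limma 3.58.1), a replicate block, each sample left out, a test against a fold change of 1.2 and a hepatocyte covariate. The code was tested on simulated counts.

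The members and gene lists were chosen with earlier results of these data known. Genes given by library are 22 core components and, per class, up to 3 called genes with the largest fold change and a mean count of at least 50. The values of 1 further junction gene are not reported here. Gene models were taken from GENCODE M21, which holds all 45 identifiers. 43 of the 45 have the same start and end there, and *Ctnna1* and *Epcam* do not. Python 3.11.15 with matplotlib 3.10.9 and pandas 2.3.3 drew the plots.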

Additional observations from a re-analysis of the deposited data

How the results depend on the processing

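The direction of every called gene was kept in all alternatives. Against a fold change of 1.2 the calls fell to 5 higher and 3 lower, with 3 at adherens junctions, 3 at tight junctions, 0 in desmosomes (3 in the test of any change) and 1 among *Epcam* and the regulators, and to 13 of the other junction genes, as the test itself is stricter (18.6% of the set, and 14.7% of all genes). With the hepatocyte covariate 9 were higher, 4 were called at adherens junctions and 1 among *Epcam* and the regulators, and library totals without TMM also left 1 there (*Epcam* was lost). The cause was not tested. Library totals moved the median of all genes to -0.07 and the share of higher among all called genes from 50.3% to 38.0%, and gave 10 genes higher and 7 lower in the set. With 1 sample left out, 12 to 15 were higher and 4 to 6 lower, with 5 to 6 calls at adherens junctions, 7 to 9 at tight junctions, 2 to 3 in desmosomes, 1 for polarity, 1 to 2 for *Epcam* and the regulators and 30 to 38 of the other genes, while 32.5% to 43.0% of all genes were called. The median FPKM of the set was 5.77 in WT and 6.12 in knockout ASCs, against 16.7 and 18.3 in TPM, another unit.

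Some genes that were not called changed sign around 0. With library totals the log2 fold change was -0.0399 for *Cdh1*, -0.0525 for *Afdn*, -0.0421 for *Dsp* and -0.044 for *Pard3*. With the hepatocyte covariate it was 0.0022 for *Cdh11*, -0.0526 for *Afdn*, -0.144 for *Cldn9*, -0.018 for *Marveld2*, 0.0317 for *Cgn*, -0.115 for *Dsp*, -0.0526 for *Pard3* and -0.112 for *Zeb2*. *Cgn* was at 0.0001 with DESeq2 and 0.0025 without a filter, and *Afdn* at -0.0064 with a mean count of at least 50. With 1 sample left out the values ranged from -0.0313 to 0.0507 for *Afdn*, -0.178 to 0.0032 for *Cldn3*, -0.0072 to 0.823 for *Cldn9*, -0.0261 to 0.222 for *Marveld2*, -0.0318 to 0.0364 for *Cgn*, -0.0711 to 0.134 for *Dsp*, -0.134 to 0.0135 for *Pkp3*, -0.0573 to 0.0873 for *Pard3*, -0.0869 to 0.0202 for *Pard6b* and -0.0598 to 0.163 for *Zeb2*.

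With the replicate number as a block, 13 genes were higher and 5 lower (38.5% of all genes were called), and 1 was called among *Epcam* and the regulators. Samples of equal number did not deviate together (correlations of -0.156, 0.0046 and 0.184), so the numbers are not taken as pairs. At this depth the standard errors of *Cldn1*, *Cldn5*, *Cldn9* and *Cdh6*, all under 2 normalized CPM, are 0.24 or more, which limits what can be said of them.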
